A study of Mus musculus with 3 samples.

Results

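The genes described here encode the contractile machinery of smooth muscle cells and myofibroblasts, and were chosen by name: Acta2, Actg2, Tagln, Cnn1, Cald1, Tpm1, Tpm2, Myl9, Myh11 and Mylk. Probes were taken where the array names a RefSeq transcript of 1 of these 10 genes. This gave 16 probes of 41174 on the array, for 9 genes of the 18485 genes or transcripts tested, and no probe matched Myl9. The cells were primary mouse embryonic fibroblasts taken at E12.5, kept in DMEM containing 10% serum, and they received no treatment. On each of 3 Agilent 2-colour arrays, RNA of a culture labelled SA1-null carried Cy3 and RNA of a culture labelled wild type carried Cy5, 1 µg of total RNA each. SA1, encoded by Stag1, is a subunit of the cohesin ring, and the series asks what it does in gene regulation and development. The labels give no strain and no description of the Stag1 allele, and they call the 3 pairs biological replicates without saying whether cells of several embryos were pooled.

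The genotype labels need a caution before any direction is read. Stag1, the gene said to be lost, had a log2 ratio of Cy3 over Cy5 of 3.34, 3.74 and 3.47 on replicates 1, 2 and 3 (limma adjusted p = 0.0273), so its signal was 11.4-fold higher in Cy3, the dye of the cultures labelled SA1-null. A second Stag1 probe that exceeded background clearly in Cy3 and Cy5 on every array had a mean ratio of 3.53. The remaining probes, A_52_P267451 and A_52_P673971, were well above background in Cy5 on 2 and 0 of 3 arrays. Their mean ratios of 2.17 and 0.59 enter the Stag1 value only where all kept probes are averaged. Which probes lie in the disrupted stretch is not given. This goes against the labels, and the channels are therefore called by their dye and label throughout. Every ratio below is Cy3, labelled SA1-null, over Cy5, labelled wild type, and would change sign with the labels exchanged. The opposite dye order was not used on any array, and an effect of the dye cannot be told apart from one of the genotype. The deposited ratios of the series run as Cy5 over Cy3, opposite to the ratios here. Replicate 1 was on slide 1 and read with an older Feature Extraction version than replicates 2 and 3, which shared slide 2.

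In smooth muscle and in fibroblasts that turn into contractile myofibroblasts, actin filaments slide against myosin to produce force. Thin filaments of alpha and gamma smooth muscle actin carry tropomyosin, caldesmon, calponin and transgelin. Myosin light chain kinase starts contraction by phosphorylating the regulatory light chain of myosin. Many of these genes are controlled by serum response factor, which binds CArG boxes in their regulatory DNA together with the coactivators myocardin, MRTF-A and MRTF-B. TEAD factors bind a further element, the MCAT box.

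Acta2, Cnn1 and Mylk are the members with the same sign on all 3 arrays that have an entry among the RefSeq promoter windows (build GRCm38.p6), and their windows are shown for that reason, from 250 bases before to 50 bases after the annotated start. Capitals mark CArG-like matches and MCAT matches.
Acta2, GRCm38.p6 chr19:34255324-34255623, minus strand: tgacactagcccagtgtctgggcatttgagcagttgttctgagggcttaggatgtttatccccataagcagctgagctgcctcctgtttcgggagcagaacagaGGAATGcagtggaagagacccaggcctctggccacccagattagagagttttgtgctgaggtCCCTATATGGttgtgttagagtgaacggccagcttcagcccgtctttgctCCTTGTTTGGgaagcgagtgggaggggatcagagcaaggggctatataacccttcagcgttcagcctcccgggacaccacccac
Cnn1, GRCm38.p6 chr9:22099003-22099302, plus strand: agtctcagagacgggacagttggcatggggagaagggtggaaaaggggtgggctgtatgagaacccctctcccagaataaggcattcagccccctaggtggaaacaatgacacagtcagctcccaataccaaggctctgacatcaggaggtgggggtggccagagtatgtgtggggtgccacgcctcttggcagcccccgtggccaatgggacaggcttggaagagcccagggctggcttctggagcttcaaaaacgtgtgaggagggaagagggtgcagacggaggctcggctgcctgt
Mylk, GRCm38.p6 chr16:34784700-34784999, plus strand: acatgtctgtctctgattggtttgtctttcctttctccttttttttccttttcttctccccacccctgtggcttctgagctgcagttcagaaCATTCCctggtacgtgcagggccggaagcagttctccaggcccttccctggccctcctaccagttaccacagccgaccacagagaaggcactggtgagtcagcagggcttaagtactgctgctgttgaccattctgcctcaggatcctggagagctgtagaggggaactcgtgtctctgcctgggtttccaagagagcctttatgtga
A CArG-like match is CCNNNNNNGG with at least 5 of the 6 inner bases A or T, which reads alike on both strands. The MCAT box was searched as CATTCC on both strands. The Acta2 window held 2 CArG-like matches, CCCTATATGG from 84 to 75 bases and CCTTGTTTGG from 34 to 25 bases before the start, and an MCAT match further upstream, none of which overlap. The Mylk window held an MCAT match from 158 to 153 bases before the start, and the Cnn1 window held neither motif. The 7 members with a window had 8 windows, as Cald1 had a second, which held neither motif. Of these 8, 2 held a CArG-like match (Acta2 and Myl9) and 4 an MCAT match (Acta2, Cald1, Tpm1 and Mylk). Among all 32851 windows of the same length, 9.98% held a CArG-like match and 14.7% an MCAT match.

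None of the 9 measured contractile genes passed the test between the channels. At a limma adjusted p under 0.05, 58 of 18485 genes and transcripts were called (0.314%; 0.303% with Cy3 lower and 0.0108% with Cy3 higher), and 0 of these were members. At an unadjusted p under 0.05 the members gave 1 of 9, Cnn1 with Cy3 lower, where all genes gave 7.49% in either direction and 5.16% with Cy3 lower. Mean ratios were below 0 for 5 of 9 members, beside 54.4% of all genes, and above 0 for 4, beside 45.6%. Members took 4 courses over the arrays, each read at the brightest kept probe. Acta2, Tagln and Cnn1 lay below 0 on 3 of 3 arrays, as did 19.1% of all genes, and Mylk lay above 0 on 3 of 3, as did 13.3%. Actg2, Tpm1 and Cald1 were below 0 on replicates 1 and 2 and above 0 on replicate 3, while Tpm2 and Myh11 were above 0 on replicate 1 alone. The second probes of Cald1 and Tpm2, given below, did not share these courses. The median over members was -0.04, beside -0.02 over all genes, with array medians of -0.39, -0.45 and -0.05. In RNA from whole cultures, fewer contractile cells and less of a transcript per cell cannot be told apart.

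**Figure D1:**
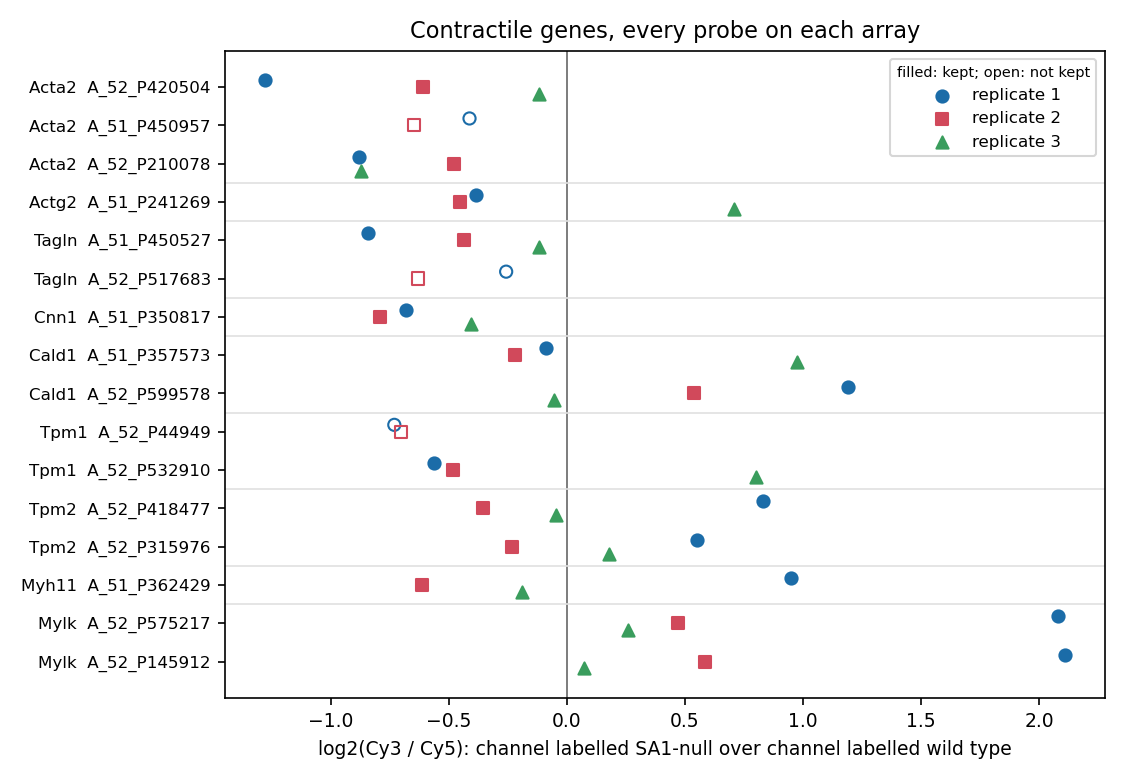
Log2 ratio of Cy3 over Cy5 (x axis) for each of the 16 probes of the contractile genes (rows), 1 point for each array; open points belong to 3 probes not kept because of a flagged spot on replicate 3. Points of Acta2, Tagln and Cnn1 lie left of 0 and those of Mylk right of 0, while the other genes straddle it.

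Each of the 16 probes exceeded background clearly in Cy3 and in Cy5 on every array, so no member is a bound. Local background was between 21 and 36 in Cy3 and between 45.5 and 74 in Cy5 for these probes. No spot was marked saturated (0 on each array). Of the 16 probes, 11 were flagged in Cy5 on every array as read at low detector gain and scaled up, which held for 6.30%, 3.26% and 2.69% of all spots on the 3 arrays. Only 5 probes, those of Cald1, Myh11 and Mylk, were never read in this way.

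Acta2 encodes alpha smooth muscle actin, the usual marker of myofibroblasts. Before any correction, the Cy3 signal of its brightest probe was 41803, 78401 and 117704 on replicates 1, 2 and 3. The Cy5 signal was 369331, 280883 and 251347. After normalization within arrays its log2 ratios were -1.28, -0.61 and -0.12. The Cy5 channel was thus the higher on each array, by very different amounts. The mean was -0.67 ± 0.58 (SD, n = 3; limma 95% interval -1.35 to 0.01, adjusted p = 0.665), a 1.59-fold higher signal in the channel labelled wild type that did not pass. This probe was printed in 10 spots on each array, which share labelling, hybridization and scan and so show the error between spots alone. The SD between spots was 0.10, 0.10 and 0.08 on the 3 arrays, against 0.58 between arrays, and the spot values of the 3 arrays did not overlap (-1.38 to -1.12, -0.77 to -0.51 and -0.31 to -0.06).

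**Figure D2:**
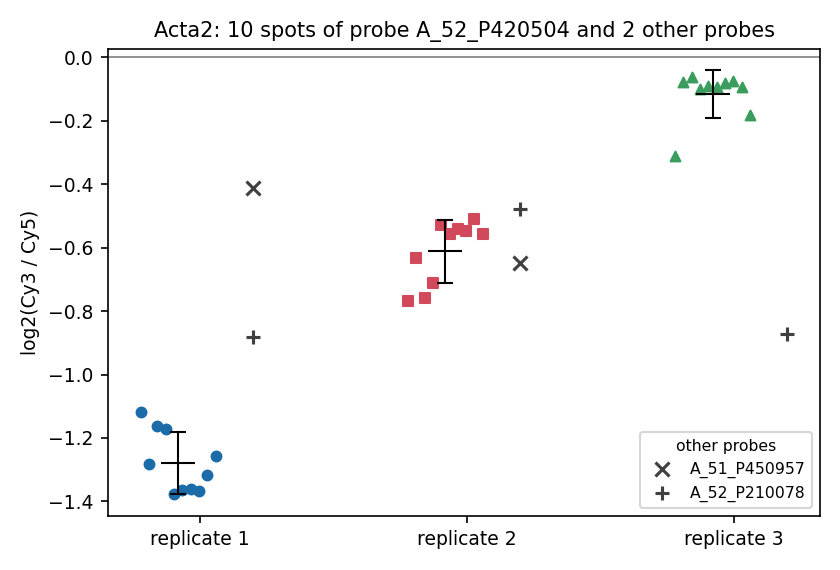
Log2 ratio of Cy3 over Cy5 (y axis) on each array (x axis) for the 10 spots of the brightest Acta2 probe, with their mean and SD as bars, and for the 2 other Acta2 probes (cross and plus). The 10 spots form a tight group on each array and the groups lie apart, while the probe shown by plus signs keeps about the same ratio on replicates 1 and 3 (-0.88 and -0.87).

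The other Acta2 probes gave the same sign on the arrays where they were kept, with another order of the arrays. A_52_P210078 had ratios of -0.88, -0.48 and -0.87 (mean -0.74 ± 0.23, SD, n = 3), with an unadjusted p of 0.00666 and an adjusted p of 0.378 in limma over every kept probe, of which 7.37% had an unadjusted p under 0.05 and 0.321% were called. A_51_P450957 had -0.41 and -0.65, and its spot on replicate 3 was flagged as uneven and left out. That spot read 68743 in Cy3 and 82644 in Cy5 before correction, which does not give the sign of a normalized ratio. On replicate 3 the 2 usable Acta2 probes differed by 0.76, more than the spots of 1 probe differed from each other. Actg2 encodes gamma smooth muscle actin, the isoform of the gut and bladder wall. Its probe had ratios of -0.39, -0.45 and 0.71 (mean -0.04 ± 0.65, SD, n = 3, limma adjusted p = 0.976), with Cy3 the higher channel on replicate 3 alone.

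Tagln encodes transgelin (SM22), an early marker of the smooth muscle lineage that binds actin. Its Cy3 signal was 43635, 76067 and 102676, and its Cy5 signal 285955, 241238 and 215947. Its log2 ratios of -0.84, -0.44 and -0.12 ran beside those of Acta2 (mean -0.47 ± 0.36, SD, n = 3; limma 95% interval -0.98 to 0.04, adjusted p = 0.686). A further Tagln probe had -0.26 and -0.63 on replicates 1 and 2. Its spot on replicate 3 was flagged and left out, at 52496.5 in Cy3 and 65119.2 in Cy5 before correction. On that array the kept Tpm1 probe, at 60189.9 and 59012.7, had a normalized ratio of 0.80. Raw signals thus do not give the sign of the left-out spot. Both Tagln probes were below 0 on the arrays where they were kept, and the test was not passed.

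Cnn1 encodes calponin, which binds actin and restrains the myosin ATPase. Signals of its probe were 26572, 25117 and 33782 for Cy3, and 152611, 96663 and 74806 for Cy5. Its ratios of -0.68, -0.79 and -0.41 were the most even among the members (mean -0.63 ± 0.20, SD, n = 3). The limma 95% interval was -1.04 to -0.21, the unadjusted p 0.0119 and the adjusted p 0.452, so it lay below 0 on 3 of 3 arrays and failed the correction over all genes. Cnn1 had a single probe, and no further probe checks its value.

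Cald1 encodes caldesmon, an actin- and myosin-binding protein with smooth muscle and non-muscle forms. Its brighter probe had ratios of -0.09, -0.22 and 0.97 (mean 0.22 ± 0.65, SD, n = 3, limma adjusted p = 0.850). The second probe, named for the same transcript, had 1.19, 0.54 and -0.05. The probes differed by 0.76 to 1.28 on each array, with opposite signs on all 3, and no direction is given for Cald1. In the other members with several probes, the ratios of 2 probes differed by at most 0.87 on an array.

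The tropomyosins are coiled-coil proteins that lie along actin filaments and gate access of myosin. The kept Tpm1 probe had ratios of -0.56, -0.48 and 0.80 (mean -0.08 ± 0.76, SD, n = 3, limma adjusted p = 0.958). A brighter Tpm1 probe had -0.73 and -0.70 on replicates 1 and 2 and was left out for a flagged spot on replicate 3. With flagged spots kept, that probe stands for Tpm1 and the mean is -0.37. Tpm2 took another course, with ratios of 0.83, -0.35 and -0.05 at its brighter probe (mean 0.14 ± 0.62, SD, n = 3, limma adjusted p = 0.903) and 0.55, -0.23 and 0.18 at the second. Tpm2 thus had its highest ratio on replicate 1, where Tpm1 had its lowest.

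Myh11 encodes the smooth muscle myosin heavy chain, a late marker of differentiated smooth muscle. Its signals were dim, at 688, 92 and 182.5 for Cy3 and 1101, 286.5 and 231 for Cy5, with ratios of 0.95, -0.61 and -0.19 (mean 0.05 ± 0.81, SD, n = 3, limma adjusted p = 0.978). Both signals were highest on replicate 1. As log2 levels scaled between arrays, they were 9.59, 7.65 and 7.98 in Cy3 and, closer together, 8.64, 8.27 and 8.17 in Cy5. Mylk encodes myosin light chain kinase, in a long form of many cell types and a short smooth muscle form. Signals for Cy3 were 6676, 966 and 1037, and for Cy5 5204, 1381 and 906, again highest on replicate 1. Its ratios were 2.08, 0.47 and 0.26 (mean 0.94 ± 1.00, SD, n = 3; limma 95% interval -0.10 to 1.98, adjusted p = 0.689), a mean Cy3 signal 1.91 times that of Cy5 that did not pass. The second Mylk probe gave 2.11, 0.58 and 0.07, within 0.19 of the first on each array. Without replicate 1 the mean Mylk ratio was 0.36.

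Levels of the single channels were read as well. They are log2 intensities scaled between arrays, and each is compared only with the same probe. Normalization within and between arrays shapes these levels, and its part in the spread of a channel was not tested. Before any correction, the Cy5 signal of Acta2 was 369331, 280883 and 251347. Acta2 was at 17.49, 17.51 and 17.37 in Cy5 and at 16.21, 16.90 and 17.25 in Cy3. All 3 Cy3 levels lay below all 3 Cy5 levels for Acta2, Tagln and Cnn1, in 3 of 9 members, where 6% of all genes had this order, and the opposite order held for 0 of 9 members and 2.86% of all genes. For the other 6 members the channels overlapped. The Cy3 levels varied more than the Cy5 levels for 7 of 9 members, against 49.1% of all genes. Tpm1 had an SD of 0.84 in Cy3 and 0.24 in Cy5, Myh11 1.04 and 0.25, and Mylk 1.51 and 0.52 (n = 3 cultures each). Tpm2 was the reverse, with 0.45 in Cy3 and 1.04 in Cy5, because its Cy5 level on replicate 1 was 14.41 against 16.29 and 16.14. The SD of the log2 ratio was above the median of all genes (0.32) for 8 of 9 members, all but Cnn1, where 50% of all genes lie above it by definition.

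**Figure D3:**
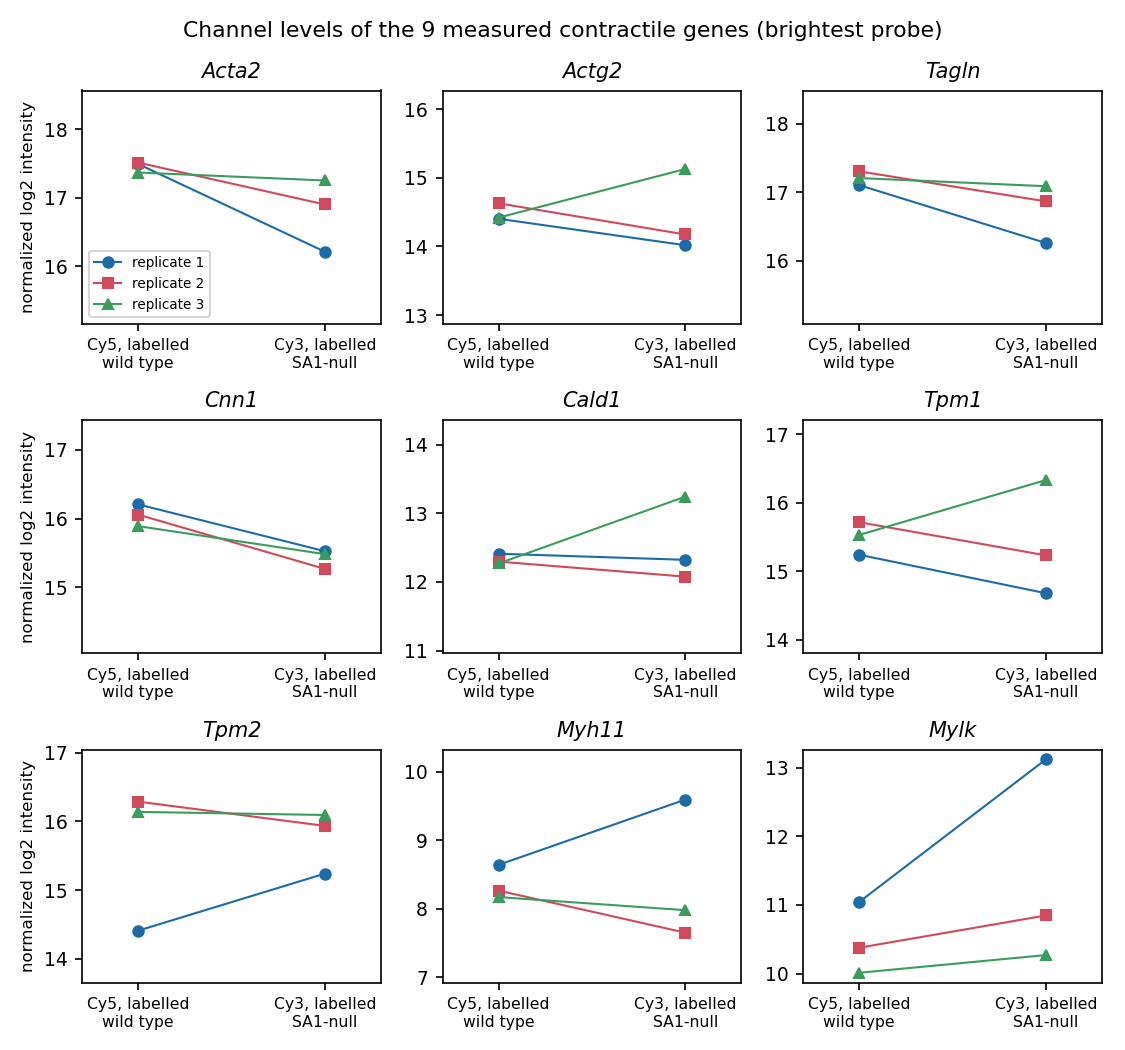
Normalized log2 intensity (y axis, the same span of 3.4 units in each panel) of the brightest kept probe of each of the 9 measured genes in Cy5, labelled wild type, and Cy3, labelled SA1-null; a line joins the channels of 1 array. Lines of Acta2, Tagln and Cnn1 slope down on all 3 arrays and those of Mylk up, and the lines of each other gene slope both ways.

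The signs of Acta2, Tagln, Cnn1 and Mylk were kept in each of the 18 alternative settings tried, some of which alter only the test and cannot move a ratio, while Actg2, Cald1, Tpm1, Tpm2 and Myh11 changed sign in 2 to 5 of them. Sizes moved more. Under median centring instead of loess, which moved the all-gene median to -0.30, Acta2 was at -1.50, Tagln at -1.29 and Cnn1 at -1.34, which is -1.20, -0.99 and -1.04 against all genes. Mylk was then at 0.56. In the deposited values, turned to Cy3 over Cy5, Acta2 was at -0.38, Tagln at -0.20, Cnn1 at -0.65 and Mylk at 1.04. Without replicate 1 Acta2 was at -0.36 and Tagln at -0.28. With the slide as a fixed term, 2 members were called, Acta2 (-0.82, limma adjusted p = 0.0382) and Mylk (1.22, adjusted p = 0.0056). Over all alternatives the adjusted p ran from 0.0382 to 1 for Acta2 and from 0.0056 to 1 for Mylk. The slide fit took its spread from the 2 arrays of slide 2 alone and called 9.58% of all genes.

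**Figure D4:**
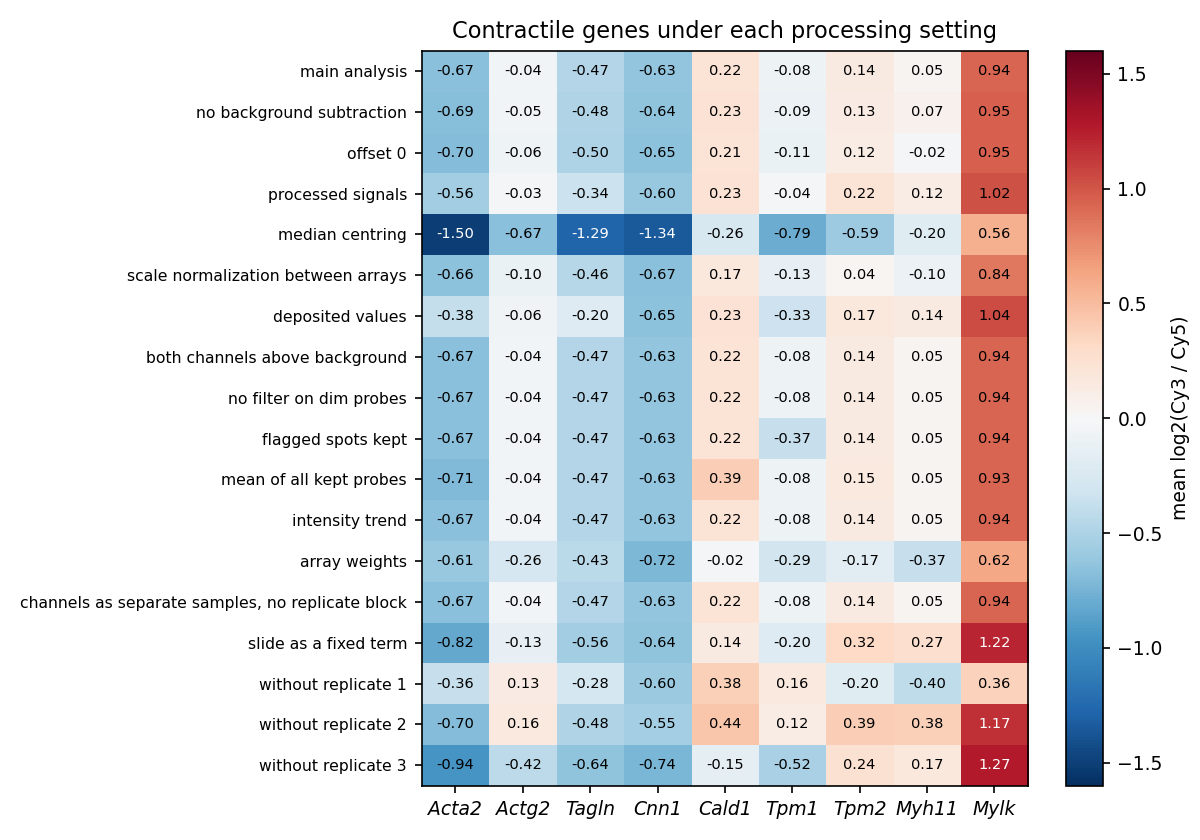
Mean log2 ratio of Cy3 over Cy5 (colour and number) for each of the 9 genes (columns) under the main analysis and 17 alternative settings (rows). Columns of Acta2, Tagln and Cnn1 stay below 0 and that of Mylk above 0, with the most negative values under median centring.

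Regulators of these genes were measured on the same arrays. Serum response factor, Srf, had ratios of -0.46, -0.34 and -0.40 (mean -0.40 ± 0.06, SD, n = 3, limma adjusted p = 0.655), nearly the same on each array. Mrtfa was at 0.15, -0.14 and 0.52 and Mrtfb at -0.15, -0.02 and -0.73 (adjusted p of 0.815 and 0.722 in limma). Both Myocd probes were not well above background on any array in either channel (0 of 3), so no ratio is given for myocardin. Klf4, a repressor of smooth muscle genes, had 2.51, 1.63 and 1.16 (mean 1.76 ± 0.68, adjusted p = 0.198) and the transcription factor gene Gata6 had 1.09, 0.43 and 0.81 (0.78 ± 0.33, adjusted p = 0.419). Of 21 regulators tested, 11 were below 0 and 10 above, with a median of -0.02. In limma 0 passed, beside 0.314% of all genes, and 3 had an unadjusted p under 0.05, beside 7.49%.

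Other genes of the contractile cytoskeleton were read in 5 lists. Of 16 further smooth muscle genes, 7 were below 0 and 9 above, with a median of 0.17, among them the leiomodin gene Lmod1 (-0.75, -0.31 and -0.52) below 0 and the small heat shock protein gene Hspb6 (1.08, 0.17 and 0.81) above 0. Of 11 genes listed as non-muscle relatives of the members, 7 were below 0, with a median of -0.25 and array medians of -0.54, -0.32 and 0.36. The myosin genes Myh9 (-0.55 ± 0.26), Myl6 (-0.52 ± 0.30) and Myl12b (-0.57 ± 0.41) of this list were below 0 on all 3 arrays. Genes of light chain phosphorylation, Mylk included, had a median of 0.16 (6 of 18 below 0), with Calm2 at -0.36 ± 0.03. Adhesion and cytoskeletal targets of serum response factor had a median of -0.06 (11 of 20 below 0), including Fhl1 (-1.38 ± 0.44) and Ccn2, the connective tissue growth factor gene (-1.46, -0.73 and -0.20). Genes of the myofibroblast and TGF-beta response, which also hold Ccn2, had a median of 0.03 (11 of 23 below 0), with the matrix protein gene Postn (1.48 ± 1.08) and the cadherin gene Cdh11 (0.97 ± 0.60) above 0 on all 3 arrays. Across the alternatives, the median of the non-muscle relatives stayed below 0 (-0.64 to -0.05), and the medians of the other 4 lists took both signs. No gene of these 5 lists passed in limma, beside 0.314% of all genes. Of their 16, 11, 18, 20 and 23 genes, 3, 3, 0, 3 and 4 had an unadjusted limma p under 0.05, beside 7.49% of all genes.

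**Figure D5:**
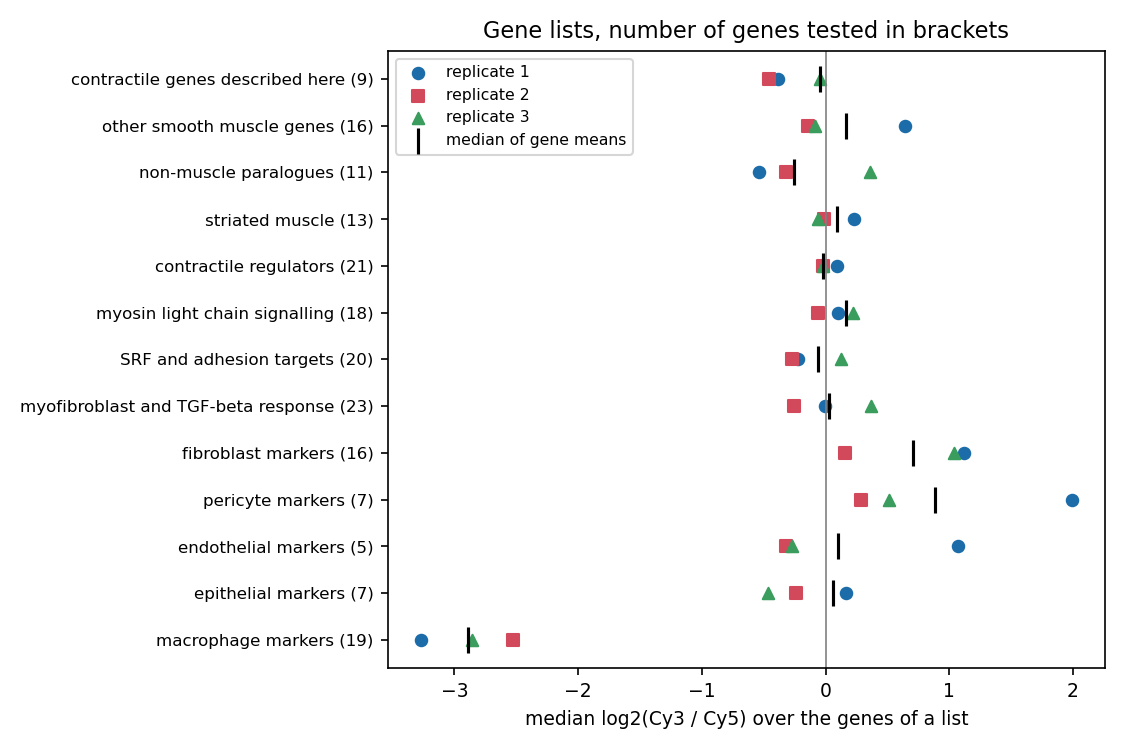
Median log2 ratio of Cy3 over Cy5 (x axis) over the tested genes of each list (rows) on each array (points) and of the gene means (black bars). The contractile genes lie at -0.39, -0.45 and -0.05 on the arrays, the macrophage markers near -3 and the fibroblast markers above 0 on all 3 arrays.

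Markers of cell types were read beside the contractile genes. Of 18 fibroblast markers, 18 had a probe clearly above background in Cy3 and in Cy5 on every array. Among all probes, 60.64% to 65.95% in Cy3 and 61.99% to 67.04% in Cy5 were so on an array. Of 19 macrophage markers with a probe, 18 were so in Cy3 and 19 in Cy5 on every array. These counts therefore do not identify the cell type. Of the 16 fibroblast markers tested, 0 were called in limma, beside 0.314% of all genes, and 6 had an unadjusted p under 0.05, beside 7.49%. Above 0 were 15, beside 45.6% of all genes, with a median of 0.71. That median was 0.04 with median centring, where the all-gene median was -0.30, and 0.32 with array weights. Pericyte markers were at a median of 0.88 (6 of 7 above 0), with array medians of 1.99, 0.29 and 0.51, and 0 called in limma (1 at an unadjusted p under 0.05). The pericyte median was 0.36 without replicate 1, 1.32 without replicate 2, 0.53 with median centring and 0.49 with array weights. Among striated muscle genes 5 were at background everywhere (Actn2, Ckm, Myf5, Myh6 and Myl1). The 13 tested had a median of 0.09, with 5 below 0 and 8 above. Tnni2, a fast skeletal troponin gene, was at -1.14, -0.77 and -1.08, while Tnnt3, Tnnt2 and Myl4 had means of 0.55, 0.39 and 0.23. Pecam1, Tie1, Epcam, Cldn4 and Esrp1 were at background as well. The 5 endothelial and 7 epithelial genes tested had medians of 0.10 and 0.06, with 0 called in limma (1 and 2 at an unadjusted p under 0.05). Of the epithelial genes 3 were below 0 and 4 above. The keratin genes Krt8 (-1.02 ± 0.42) and Krt18 (-0.75 ± 0.55) were below 0 on all 3 arrays. Krt19 (0.66 ± 1.23) and Krt5 (0.06 ± 0.09) had means above 0. The endothelial and epithelial medians took either sign over the alternatives, at -0.29 and -0.35 without replicate 1 and -0.24 and -0.16 with array weights. The striated muscle median was -0.02 with median centring and without replicate 1. The part of these other cell types in the contractile ratios was not tested.

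Macrophage markers differed most between the channels. Of 20 listed, 19 could be tested, and each had a ratio below 0 on every array. Their median was -2.89 and 13 were called with Cy3 lower, beside 0.303% of all genes, Tyrobp (-3.15 ± 0.15) and Lyz1 (-3.62 ± 0.23) among them. Their summed normalized intensity was 482817, 88818 and 80746 in Cy5 and 44555, 11209 and 9279 in Cy3, so that replicate 1 held the most in either channel, and 0 of the 19 were at background everywhere. The same sum over the 9 contractile genes was 491085, 583191 and 528935 in Cy5 and 298061, 407504 and 540570 in Cy3, a log2 ratio of -0.72, -0.52 and 0.03. Bright members such as Acta2 and Tagln weigh most in this sum, and dim ones such as Myh11 and Mylk weigh little. Before normalization the background-subtracted sums of the contractile genes were 1015380, 858011 and 710410 for Cy5, against 174764, 260441 and 390392 for Cy3. The part of macrophage RNA in the contractile ratios was not tested.

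Members were also compared with each other by the root mean square difference of their 3 ratios. The nearest pair was Actg2 and Tpm1 (0.12), followed by Tpm2 and Myh11 (0.19), Actg2 and Cald1 (0.27) and Acta2 and Tagln (0.27), and the farthest was Acta2 and Mylk (2.05). Outside the members, the genes nearest to the members' median course were Asb2 (0.05), Rbfox1 (0.05), Lactb (0.06), Samd10 (0.06) and Lipa (0.07). With 3 arrays, many genes lie near any course, and nothing is read from these names.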

How the data were processed

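The arrays were scanned and read with Agilent Feature Extraction 10.1.1.1 (replicate 1) and 10.7.3.1 (replicates 2 and 3), per the file headers. The deposited files hold median spot and background intensity values per dye, processed intensity values, and a log10 ratio of Cy5 over Cy3. The deposited table of log2 values was made with limma, per the submitters' processing notes, with settings not given in the sources used here. Across probes its correlation with the ratios computed here was -0.991, -0.986 and -0.997, so it runs as Cy5 over Cy3. Its column medians were -0.02, -0.02 and -0.01, and how it was centred stays unknown.

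Median signals were corrected with normexp (offset 50) and normalized by loess within arrays in limma 3.58.1 (R 4.3.3). Flagged outlier spots (116, 125 and 207) and control spots took no part in the loess or the test. Spots of a probe were averaged. The 24015 probes kept were well above background in the same channel on all 3 arrays and free of flagged values. Each gene was represented by its brightest kept probe, which left 18485 genes or transcripts. RefSeq transcripts of GRCm38.p6 named 23374 probes. The array design names another build, so only the promoter windows carry coordinates. Mean ratios were tested against 0 with lmFit and eBayes and p-values were adjusted over all genes after Benjamini and Hochberg, with a threshold of 0.05. Each SD is over 3 arrays, whose number limits the precision. The p-values rest on the spread between arrays, with the variance of each gene moderated by eBayes over all genes. Labelling, hybridization and scan enter this spread beside the cultures. Channel levels were scaled between arrays with Aquantile. The fit was tested on simulated data. Each array pairs its channels, so the ratio carries the pairing.

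Members and gene lists were chosen with earlier results of these data known. Named are all members, Stag1, Srf, Myocd, Mrtfa and Mrtfb, called genes and up to 4 genes of lowest p per list, and the 5 genes nearest the members' median course. Some that the rule allows are left unnamed. The alternatives cover background correction, normalization, filters, probe rules, variance models, channels as separate samples, the slide, each replicate left out, and a threshold of 0.1.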

Additional observations from a re-analysis of the deposited data

How the results depend on the processing

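The count of called members was 0 in 17 of 18 alternatives and 2 with the slide as a fixed term. The median over members was -0.67 with median centring (-0.38 relative to the all-gene median), -0.29 with array weights, which gave replicate 2 a weight of 3.09 against 0.48 and 0.67, and between -0.42 and 0.16 with each replicate left out. Among all genes, 58 were called. The count was 118 with no background subtraction, 265 with an offset of 0, 325 with processed signals, 34 with median centring, 156 with scale normalization, 92 with both channels above background, 0 with no filter on dim probes (1980 at an unadjusted p under 0.05), 113 with an intensity trend, 185 with array weights, 1770 with a fixed slide term and 132 at a threshold of 0.1. It was between 0 and 284 with each replicate left out: 284 without replicate 1, and 0 in limma without replicate 2 or 3 (1295 and 737 at an unadjusted p under 0.05). Of the calls, 96.6% were lower in Cy3, against 73.6% with the slide as a fixed term. As separate samples with no replicate block, which drops the pairing within arrays, the count was 0 (636 at an unadjusted p under 0.05) and Stag1 was at 3.52 with an adjusted p of 0.0736 in limma.

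Stag1 stayed above 0 in all alternatives, and was at 2.45 with the mean of all kept probes, its dim probes included. It missed the threshold with scale normalization (3.68), with no filter on dim probes (3.52), and without replicate 2 (3.40) or 3 (3.54), and its range with each replicate left out was 3.40 to 3.61. Signs changed for Cald1 with median centring (-0.26, or 0.04 relative to the all-gene median) and array weights (-0.017). They changed for Tpm2 in the same settings (-0.59 and -0.17), and for Myh11 there (-0.20, or 0.10 relative to the all-gene median, and -0.37), with an offset of 0 (-0.021) and with scale normalization (-0.10). With each replicate left out, Actg2 was between -0.42 and 0.16, Cald1 between -0.15 and 0.44, Myh11 between -0.40 and 0.38, Tpm1 between -0.52 and 0.16 and Tpm2 between -0.20 and 0.39. Acta2 was between -0.94 and -0.36, Tagln between -0.64 and -0.28, Cnn1 between -0.74 and -0.55 and Mylk between 0.36 and 1.27 there. The cause of these changes was not tested.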
